A study of Mus musculus with 24 samples.

Results

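The genes described here encode the pantetheinases and the enzymes that make coenzyme A: Vnn1, Vnn3, Pank1, Pank2, Pank3, Pank4, Ppcs, Ppcdc and Coasy. They were chosen by gene name, as all probes on the array that carry one of these 9 names, of 37074 names in all. The 9 genes had 11 probes, and each gene was read by the probe with the highest mean signal. The second probe of Pank2 and of Coasy served as a check.

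Liver RNA of 24 male C57BL/6J mice was hybridised to 1 single-colour Agilent array per mouse, with 6 mice in each of 4 groups. LWT mice carried the floxed gene for p110α, the catalytic subunit of phosphoinositide 3-kinase that acts below the insulin receptor, and no Cre. LKO mice, their littermates, carried the same floxed gene and Cre driven by the albumin promoter, which is active in hepatocytes. Deletion in the other cell types of the liver was not examined here. At 12 weeks of age, mice of each genotype were either fed ad libitum (LWT_Fed, LKO_Fed) or fasted for 24 h from ZT16 (LWT_Fasted, LKO_Fasted), and all were killed at ZT16, where ZT0 is lights on. The study asked which responses of the liver to feeding and fasting depend on p110α in hepatocytes.

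Coenzyme A carries acyl groups in fatty acid oxidation, ketogenesis, the citric acid cycle and lipid synthesis. Cells make it from pantothenate, vitamin B5. Pantothenate kinases, the PANK enzymes, add the first phosphate and set the rate of the pathway under feedback by coenzyme A and its esters. PPCS then joins cysteine, PPCDC removes its carboxyl group, and the bifunctional enzyme COASY completes the molecule. Pantetheinases of the vanin family act in the opposite direction, on the breakdown product pantetheine, which they split into pantothenate and cysteamine. The hepatic coenzyme A pool is known to rise in fasting, and Vnn1 and Pank1 are known targets of PPARα, the nuclear receptor that induces fatty acid oxidation in the fasted liver. Vnn1 was also among the genes the study itself followed as PPARα targets, so its rise in these samples is not independent evidence.

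Signals are log2 values of the median spot intensity after quantile normalization. A gene was called higher or lower where its limma p, adjusted over the 32197 probes kept (21372 genes), was no more than 0.05. All 11 probes of the 9 genes were well above background on all 24 arrays. The share of spots well above background ran from 54.7% to 63.0% over the arrays, and no spot was saturated. All 6 hepatocyte markers were well above background on every array. The log2 of their summed signal ran from 20.82 to 20.86 in LWT_Fed and 20.81 to 20.88 in LWT_Fasted. It ran from 20.83 to 20.85 in LKO_Fed and 20.74 to 20.82 in LKO_Fasted, so fed and fasted LKO arrays did not overlap. Of the 6 markers, 1 was called lower with fasting in each genotype and 1 lower in LKO_Fasted than in LWT_Fasted. In LKO_Fed, 1 was higher and 1 lower than in LWT_Fed. The Pik3ca probe, which reads the targeted gene, ran from 11.71 to 12.42 on the LWT arrays and from 12.03 to 13.02 on the arrays labelled LKO, and it was higher in LKO_Fed than in LWT_Fed (log2 fold change 0.58, adjusted p = 0.00147 by limma). Where this probe lies relative to the deleted exons was not examined, so it does not check the labels, and LKO stands for the label throughout. Each array lay on 1 of 3 slides with 2 arrays of each group, and the slide was a term in the fit. In whole liver, fewer cells of a type and less RNA per cell cannot be told apart.

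In control livers, fasting raised both pantetheinases and 2 of the 3 catalytically active kinases. Of the later enzymes, Ppcdc fell slightly and Ppcs and Coasy did not pass the test. Of the 9 genes, 4 rose (Vnn1, Pank3, Pank1 and Vnn3), against 19.9% of all genes tested, and 2 fell (Pank2 and Ppcdc), against 21.7%. Together 6 of 9 were called, against 41.6% of all genes. Beyond 1.5-fold, 2 of the 9 changed (Vnn1 and Pank3), against 10.0% of all genes. Fed and fasted arrays were fully separated for 3 of the 9, Vnn1, Pank1 and Pank3, against 21.6% of all genes. In LKO livers, 5 of the 9 rose (Vnn1, Pank1, Ppcs, Pank3 and Pank2), against 19.7% of all genes that rose and 41.5% called in either direction, and the other 4 did not pass the test. There, 3 of the 9 changed beyond 1.5-fold, Vnn1, Pank1 and Ppcs, against 12.8%. Fed and fasted arrays were fully separated for 4 of the 9, those 3 and Pank3, against 22.2%. The median log2 fold change of the 9 genes was 0.14 in LWT and 0.25 in LKO, beside -0.01 and -0.02 over all genes. Both fasting calls on Pank2 were made on its first probe. On its second probe neither fasting change was called (limma adjusted p = 0.0586 in LWT and 0.815 in LKO).

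**Figure D1:**
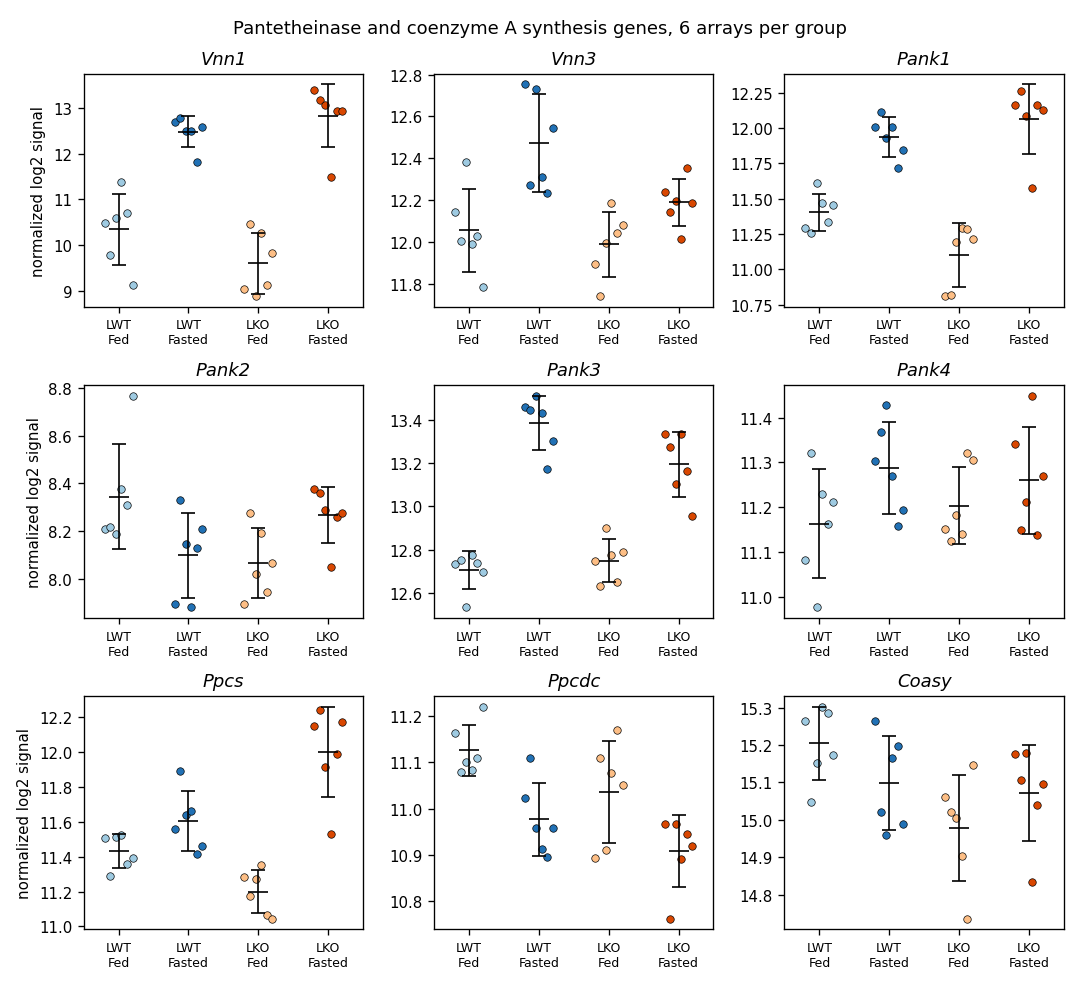
Normalized log2 signal of the 9 genes in each of the 4 groups, 1 point per array (6 per group, in order of replicate number), with the mean and SD as bars; each panel has its own vertical scale. Vnn1, Pank1 and Pank3 stand higher on all fasted arrays than on all fed arrays of the same genotype, and Ppcs does so on the LKO arrays.

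Vnn1 encodes vanin-1, the pantetheinase held to the cell surface by a lipid anchor. Its probe lies at chr10:23624524-23624583 (mm9), and RefSeq places the gene at chr10:23894688-23905344 of GRCm38.p6, next to Vnn3. In LWT_Fed livers Vnn1 ran from 9.13 to 11.37 with a median of 10.54. In LWT_Fasted livers it ran from 11.82 to 12.78 with a median of 12.54. Every fasted control array was thus above every fed control array, and the 6 fed values were more widely spread than the fasted ones (SD 0.78 and 0.34, n = 6 each). In LKO_Fed livers the range was 8.89 to 10.46 with a median of 9.47. In LKO_Fasted livers the range was 11.48 to 13.38 with a median of 13.0004, and again no fasted array fell among the fed ones. The order of the group means was LKO_Fed (9.60), LWT_Fed (10.35), LWT_Fasted (12.48) and LKO_Fasted (12.83).

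Fasting raised Vnn1 by 2.03 ± 0.34 (SE) on the log2 scale in LWT, or 4.09-fold (adjusted p = 4.47e-05, limma). In LKO it raised Vnn1 by 3.44 ± 0.37, or 10.9-fold (adjusted p = 1.5e-07). Within the 3 slides alone the change ran from 1.91 to 2.45 in LWT and from 2.19 to 3.90 in LKO. The 2 genotypes were not told apart in either state, since the log2 difference of LKO from LWT was -0.83 in fed livers (95% interval -1.55 to -0.12, adjusted p = 0.106) and 0.58 in fasted livers (-0.18 to 1.33, adjusted p = 0.294). The fasting change was larger in LKO by 1.41 (95% interval 0.37 to 2.45), which did not pass the test over all genes (adjusted p = 0.0895). Within slides 1, 2 and 3 alone this difference was 0.15, 1.45 and 1.67. It passed when LWT_Fed replicate 6, the lowest fed control array, was left out (1.72, adjusted p = 0.019). It also passed without LKO_Fasted replicate 4 (1.55, adjusted p = 0.043). Without LWT_Fed replicate 6 the fed genotype difference passed as well (-1.14, adjusted p = 0.015). The paper reported, by qPCR, increased mRNA of PPARα targets, Vnn1 among those measured, in fasted mice lacking hepatocyte p110α. On these arrays the fasted Vnn1 difference was on the higher side in LKO but did not pass the adjustment over all probes.

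Vnn3 encodes the other vanin on the array, and RefSeq places it at chr10:23851462-23869843 of GRCm38.p6. The Vnn1 and Vnn3 probes differed by an edit distance of 34 over their 60 bases, so the 2 genes were read by unlike sequences. In LWT livers Vnn3 ran from 11.79 to 12.38 when fed and from 12.23 to 12.75 when fasted, with overlap. In LKO livers it ran from 11.74 to 12.19 when fed and from 12.01 to 12.35 when fasted. The rise with fasting was 0.47 ± 0.09 on the log2 scale in LWT (adjusted p = 0.000177). In LKO the value was 0.21 (95% interval 0.00 to 0.41, adjusted p = 0.0981), and the difference between the 2 changes was not called (-0.27, 95% interval -0.54 to 0.01, adjusted p = 0.232). Vnn3 was lower in LKO_Fasted than in LWT_Fasted by 0.28 ± 0.10 (adjusted p = 0.0426). That last call was lost when any of 12 of the 24 arrays was left out, with log2 values between -0.33 and -0.24 over all alternatives. Vnn1 was on the higher side and Vnn3 on the lower side of the same comparison.

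The 3 kinases Pank1, Pank2 and Pank3 are close relatives that differ in where they act in the cell, with human PANK2 known as the mitochondrial form. RefSeq places a miRNA gene inside each of them, Mir107 in Pank1, Mir103-2 in Pank2 and Mir103-1 in Pank3. The mature 3p miRNAs are shown because one seed, in capitals, is shared by all 3 host genes.
mmu-miR-103-3p: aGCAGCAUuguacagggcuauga
mmu-miR-107-3p: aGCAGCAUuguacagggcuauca
The seed is GCAGCAU in both, and the mature sequences lie at chr2:131288103-131288125 and chr11:35782447-35782469 for the 2 copies of miR-103-3p and at chr19:34820700-34820722 for miR-107-3p (GRCm38.p6). Mature miRNAs were not analysed here, and of the host genes Pank1 and Pank3 rose with fasting in both genotypes. The first Pank2 probe fell in LWT and rose in LKO, and neither change was called on the second probe.

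Pank1 rose with fasting in both genotypes and roughly doubled in LKO. On the LWT arrays it ran from 11.25 to 11.61 (median 11.39) when fed and from 11.72 to 12.11 (median 11.97) when fasted, without overlap. On the LKO arrays it ran from 10.81 to 11.29 (median 11.20) when fed and from 11.58 to 12.26 (median 12.15) when fasted, again without overlap. The rise was 0.53 ± 0.09 on the log2 scale in LWT, or 1.45-fold (adjusted p = 6.63e-05). In LKO it was 1.02 ± 0.10, or 2.03-fold (adjusted p = 3.98e-08). The difference between the 2 rises was 0.49 ± 0.14 (adjusted p = 0.0317), 1 of 3 such calls among the 9 genes, all on the higher side, against 4.13% of all genes. Another of these calls, on Pank2, was not made on its second probe (0.22, adjusted p = 0.273). The Pank1 difference ran from 0.38 to 0.50 within the 3 slides. The call on Pank1 was lost without any 1 of 6 arrays, namely LWT_Fed replicate 4 or 5, LWT_Fasted replicate 5 or 6, LKO_Fed replicate 1 or LKO_Fasted replicate 5, and the highest adjusted p over all alternatives was 0.111. The order of the means was LKO_Fed (11.10), LWT_Fed (11.40), LWT_Fasted (11.94) and LKO_Fasted (12.06), and the last 2 overlapped and were not told apart (0.21, adjusted p = 0.141).

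Pank3 rose in both genotypes, with an SD of 0.09 to 0.15 in the 4 groups. In LWT it ran from 12.53 to 12.77 (median 12.74) when fed and from 13.17 to 13.51 (median 13.44) when fasted. In LKO it ran from 12.63 to 12.90 (median 12.76) when fed and from 12.95 to 13.33 (median 13.22) when fasted. No fasted array overlapped a fed array of its genotype. The rise was 0.64 ± 0.07 on the log2 scale in LWT, or 1.56-fold (adjusted p = 1.61e-07), and 0.40 ± 0.08 in LKO, or 1.32-fold (adjusted p = 0.000182). In LKO, unlike Pank1, the value was smaller than in LWT, but the difference was not called (-0.24, 95% interval -0.45 to -0.03, adjusted p = 0.164). In fasted livers Pank3 stood 0.20 lower in LKO with an adjusted p of 0.056, just outside the threshold, and it passed in 4 of the 24 fits that left out 1 array. It also passed with the authors' value table (adjusted p = 0.0462), normexp background correction (0.0349), no slide term (0.0279), slide as a random block (0.0278) and the mean over the probes of each gene (0.048).

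For Pank2, the results depended on the probe. In LWT its first probe ran from 8.19 to 8.77 when fed and from 7.88 to 8.33 when fasted. In LKO it ran from 7.89 to 8.28 when fed and from 8.05 to 8.37 when fasted. The groups overlapped in both genotypes. Fasting lowered it by 0.29 ± 0.09 on the log2 scale in LWT (adjusted p = 0.0124) and raised it by 0.25 ± 0.10 in LKO (adjusted p = 0.047). The difference between the 2 changes was 0.53 ± 0.13 (adjusted p = 0.0166), with 0.012, 0.54 and 0.79 within slides 1, 2 and 3, so that it was near 0 on the first. The fall in LWT was not seen within the first slide (0.021) and was lost without LWT_Fasted replicate 4 (adjusted p = 0.0556). The rise in LKO was lost when any of 14 arrays was left out.

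The 2 Pank2 probes target the same transcript, starting at bases 608 and 1223, and gave different calls. They were of like brightness, with group means from 8.07 to 8.34 on the first and from 8.04 to 8.41 on the second. The second probe ran from 8.30 to 8.62 in LWT_Fed, from 8.05 to 8.29 in LWT_Fasted, from 7.63 to 8.34 in LKO_Fed and from 7.89 to 8.19 in LKO_Fasted. On it, fasting gave -0.19 in LWT (adjusted p = 0.0586), although its LWT_Fasted arrays all lay below its LWT_Fed arrays. In LKO fasting gave 0.03 on it (adjusted p = 0.815). These changes differed by 0.22 (adjusted p = 0.273). The 2 probes gave the same direction and a call in 1 comparison, where Pank2 was lower in LKO_Fed than in LWT_Fed, by 0.30 on the first (adjusted p = 0.0255) and by 0.32 on the second (adjusted p = 0.00862). The first probe lost that call without LKO_Fed replicate 1 or 3 (adjusted p of 0.0545 and 0.0634).

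Pank4 encodes a relative of these kinases that lacks pantothenate kinase activity and carries a phosphatase domain. It stayed between 10.98 and 11.45 on all 24 arrays. Its fasting change was 0.08 in LWT (95% interval -0.04 to 0.21, adjusted p = 0.294) and 0.04 in LKO (-0.11 to 0.18, adjusted p = 0.705). Its genotype differences were 0.01 when fed and -0.04 when fasted. The 95% intervals of both fasting changes thus ended at or below 0.21 log2 units.

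**Figure D2:**
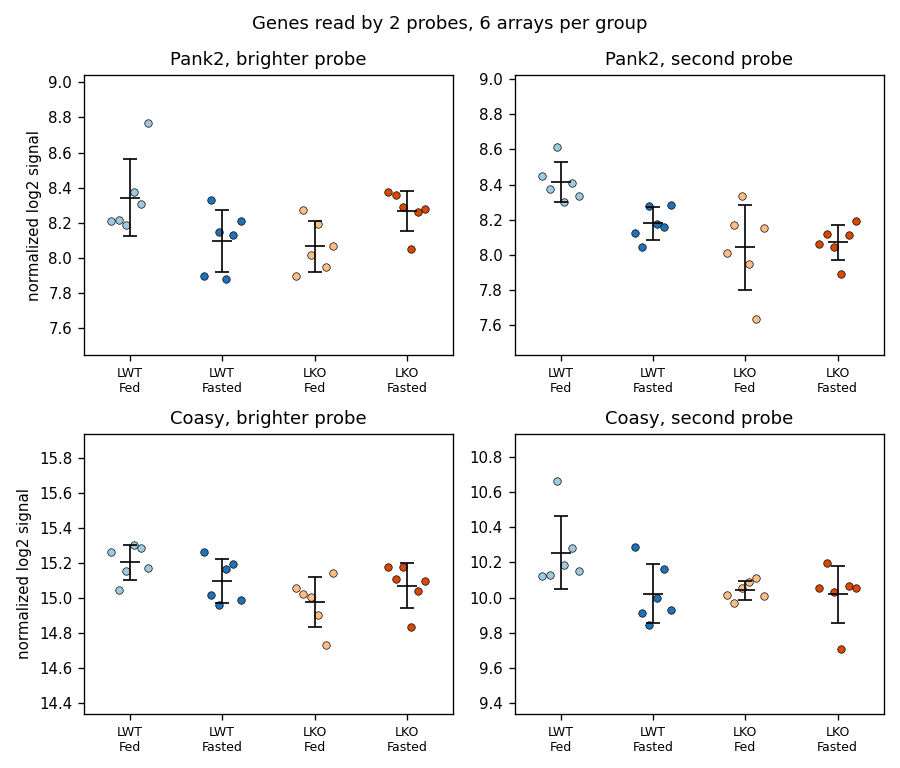
Normalized log2 signal of Pank2 (top) and Coasy (bottom) on each of their 2 probes, 1 point per array, with the mean and SD of 6 arrays as bars. The first Pank2 probe is highest in LWT_Fed and second highest in LKO_Fasted, whereas on the second probe both LKO groups lie below both LWT groups in the mean.

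Ppcs, the synthetase that joins cysteine to 4-phosphopantothenate, had the smallest adjusted p of the 9 genes for a difference between the fasting changes of the 2 genotypes. In LWT it ran from 11.29 to 11.52 (median 11.45) when fed and from 11.41 to 11.89 (median 11.60) when fasted, with overlap. In LKO it ran from 11.04 to 11.35 (median 11.22) when fed and from 11.53 to 12.24 (median 12.07) when fasted, without overlap. The fasting change was 0.14 in LWT (95% interval -0.03 to 0.31, adjusted p = 0.18) and 0.82 ± 0.09 in LKO, or 1.76-fold (adjusted p = 1.79e-07). The difference between the 2 changes was 0.68 ± 0.12 (adjusted p = 0.00158), the 1 difference of this kind past 1.5-fold among the 9 genes, against 3.10% of all genes. It ran from 0.54 to 0.77 within the 3 slides and stayed called in all 37 alternative fits of the same probe and threshold, leaving out each array included. In fasted livers Ppcs was higher in LKO by 0.47 ± 0.09, or 1.39-fold (adjusted p = 0.000605), also in all 38 alternatives, although the arrays of the 2 groups overlapped. When fed it was on the lower side in LKO, by a value that did not pass (-0.21, adjusted p = 0.0951). The order of the means was LKO_Fed (11.20), LWT_Fed (11.43), LWT_Fasted (11.60) and LKO_Fasted (12.00), and only the last pair of neighbours was told apart by the test.

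Ppcdc, the decarboxylase that follows, moved little. In LWT it ran from 11.08 to 11.22 when fed and from 10.90 to 11.11 when fasted. In LKO it ran from 10.89 to 11.17 when fed and from 10.76 to 10.97 when fasted. Fasting lowered it by 0.17 ± 0.05 on the log2 scale in LWT (adjusted p = 0.0129), which is 1.13-fold. In LKO the value was -0.10 (95% interval -0.22 to 0.02, adjusted p = 0.191), and the changes in the 2 genotypes were not told apart (0.07, adjusted p = 0.634).

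Coasy encodes the enzyme of the last steps. In LWT it ran from 15.05 to 15.30 when fed and from 14.96 to 15.26 when fasted. In LKO it ran from 14.74 to 15.15 when fed and from 14.83 to 15.18 when fasted. Its fasting change did not pass in LWT (-0.13, adjusted p = 0.157), nor did that in LKO (0.12, adjusted p = 0.237). In fed livers it was lower in LKO by 0.24 ± 0.07 (adjusted p = 0.0278). The second Coasy probe gave -0.16 there (adjusted p = 0.173), although its LKO_Fed arrays (9.97 to 10.11) all lay below its LWT_Fed arrays (10.12 to 10.66), and the first lost the call without any 1 of 5 arrays, LWT_Fed replicate 1, 4 or 5 or LKO_Fed replicate 4 or 5.

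**Figure D3:**
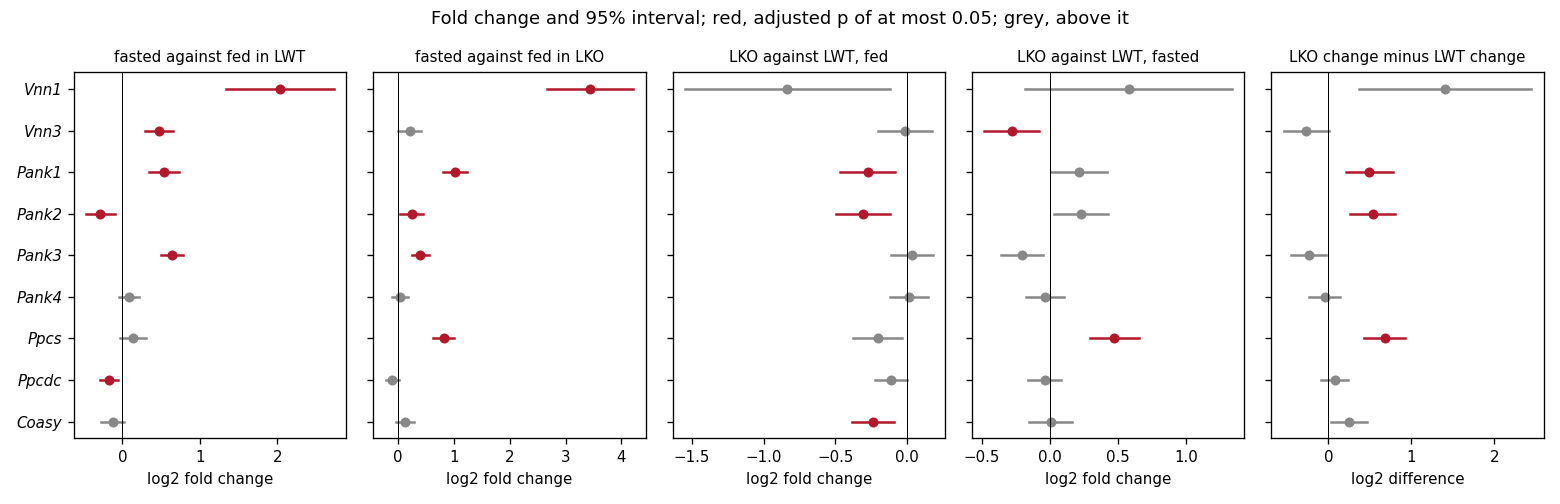
Log2 fold change of the 9 genes in the 4 comparisons and, at right, how far the LKO change exceeds the LWT change; bars are 95% intervals, and red marks an adjusted p of at most 0.05. Each panel has its own horizontal scale. Vnn1 has the widest intervals, and Ppcs is red at right and in both comparisons that involve LKO_Fasted.

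The RefSeq table (GRCm38.p6) lists 10 promoters for 7 of the 9 genes, each with 250 bases before the start and 50 after it. Vnn1 and Coasy have no entry. All 10 were searched for 2 motifs, and the promoters of Ppcs and Ppcdc are printed because they held at least 1 of them. The half-site AGGTCA, bound by nuclear receptors, was searched on both strands. It was found in 2 of the 10, the promoters of Ppcs and Ppcdc, against 16.3% of 32851 promoters. The direct repeat of this half-site with 1 free base between the copies, the kind of element PPARα binds, was searched on both strands with at most 2 mismatches and overlaps the half-site. It was found in 1 of the 10, that of Ppcdc, against 3.86%. Neither motif was found in the 2 promoters of Pank1 or in those of Vnn3, Pank2, Pank3 and Pank4. The Ppcs promoter is chr4:119422371-119422670 on the minus strand, and the Ppcdc promoter is chr9:57439687-57439986 on the minus strand. Capitals mark the half-site in Ppcs and the repeat in Ppcdc.
Ppcs: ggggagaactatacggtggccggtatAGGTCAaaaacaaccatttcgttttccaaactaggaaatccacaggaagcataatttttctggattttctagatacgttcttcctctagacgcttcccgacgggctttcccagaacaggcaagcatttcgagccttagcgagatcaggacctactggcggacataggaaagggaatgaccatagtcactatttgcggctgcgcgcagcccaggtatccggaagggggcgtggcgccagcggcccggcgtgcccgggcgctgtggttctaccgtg
Ppcdc: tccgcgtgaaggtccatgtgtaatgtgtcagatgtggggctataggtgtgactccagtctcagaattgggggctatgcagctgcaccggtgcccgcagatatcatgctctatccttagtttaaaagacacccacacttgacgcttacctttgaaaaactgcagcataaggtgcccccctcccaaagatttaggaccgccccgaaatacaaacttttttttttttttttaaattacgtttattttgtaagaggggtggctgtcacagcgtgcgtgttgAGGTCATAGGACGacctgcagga
A match of letters is no measure of binding.

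Between genotypes, fewer of the 9 genes were called than with fasting. The median absolute log2 change was 0.21 in fed and in fasted livers, beside 0.29 (LWT) and 0.25 (LKO) with fasting. This did not hold for each gene. Coasy was called between the fed genotypes and not by fasting, and Ppcs differed more between the fasted genotypes (0.47) than by fasting in LWT (0.14). In fed livers, 3 of the 9 genes (Pank1, Pank2 and Coasy) were called lower in LKO, against 7.61% of all genes called lower and 16.4% called in either direction. Their log2 differences lay between -0.30 and -0.24. The Pank1 value (-0.28, adjusted p = 0.049) lost the call when any of 17 of the 24 arrays was left out. In fasted livers, 2 of the 9 were called, against 20.6% of all genes. Ppcs was higher, against 9.99% of all genes, and Vnn3 lower, against 10.6%. No gene of the 9 was called beyond 1.5-fold between genotypes, against 3.85% of all genes in fed and 4.06% in fasted livers. On the probe that stood for each gene, LWT and LKO arrays overlapped for all 9 genes in both states, whereas they were fully separated for 8.65% of all genes in fed livers and 8.68% in fasted livers. The genes that did not pass in fed livers, beside Vnn1 and Ppcs above, were Vnn3 (-0.02, adjusted p = 0.931), Pank3 (0.03, 0.803), Pank4 (0.01, 0.934) and Ppcdc (-0.11, 0.181). In fasted livers Pank2 (0.23, adjusted p = 0.101), Ppcdc (-0.04, 0.698) and Coasy (0.01, 0.964) did not pass either. The difference of the fasting changes was 0.24 for Coasy (adjusted p = 0.162) and -0.05 for Pank4 (0.806). The comparisons share groups, so their calls are not separate pieces of evidence. Cholangiocyte markers moved with the genotype too. Of the 5 (Krt19, Krt7, Epcam, Sox9 and Spp1), 3 were lower in LKO_Fed and 2 in LKO_Fasted. They also moved with fasting, with 1 higher and 2 lower in each genotype. The log2 of their summed signal ran from 11.03 to 11.74 in LWT_Fed, 10.75 to 11.10 in LWT_Fasted, 9.62 to 10.85 in LKO_Fed and 8.997 to 10.19 in LKO_Fasted. Of the 3 adipose markers tested, 1 was lower with fasting in each genotype and 1 was lower in LKO in each state. The log2 of the summed signal of all 4 on that list (Adipoq, Lep, Plin1 and Cfd) ran from 9.05 to 10.31 in LWT_Fed, 8.66 to 12.44 in LWT_Fasted, 8.62 to 8.78 in LKO_Fed and 8.48 to 9.02 in LKO_Fasted. The highest were LWT_Fasted replicates 1 (12.44) and 5 (11.76). Without replicate 1, the lower Coasy by fasting in LWT was called (-0.17, adjusted p = 0.0494) and the lower Vnn3 in LKO_Fasted was not (-0.27, adjusted p = 0.0614). Without replicate 5, the calls on Pank2 by fasting in LKO (0.25, adjusted p = 0.0511) and on Pank1 in the difference of the fasting changes (0.43, adjusted p = 0.0539) were lost, and the lower Pank3 in LKO_Fasted was called (-0.25, adjusted p = 0.0168). Summed signals of 2 other lists were separated between the fed genotypes. For neutrophils and monocytes, with 1 of 6 markers called higher and 1 lower in LKO_Fed, the log2 sum ran from 15.20 to 15.30 in LWT_Fed and 15.41 to 15.74 in LKO_Fed. For pancreas it ran from 8.40 to 8.96 in LWT_Fed and 9.12 to 9.83 in LKO_Fed. Between LKO_Fed and LKO_Fasted, the pancreas sum (8.36 to 8.84 in LKO_Fasted) and the hepatocyte sum given above were separated too. Of the 5 pancreas markers only Cela2a was well above background on any array, and it was called higher in LKO in both states and lower with fasting in both genotypes. Erythroid markers (3 tested) had 1 lower with fasting in each genotype and 1 lower in LKO in each state. With fasting in each genotype, 1 of 4 lymphocyte markers was lower, and of 5 stellate markers 1 was higher and 1 lower. Endothelial markers (5 tested) had 1 higher with fasting in LKO and 1 lower in LKO_Fed. Neutrophil and monocyte markers had 1 lower with fasting in LWT, 2 in LKO, and 1 lower in LKO_Fasted than in LWT_Fasted. The part of these cell types in the fasting and genotype results was not tested.

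Genes around the pathway were read from lists chosen by function, with earlier results of these data known. Transport came first, with 3 genes. Slc25a42, the mitochondrial carrier that imports coenzyme A, rose by 1.41 with fasting in LWT (adjusted p = 6.11e-10) and by 1.85 in LKO (adjusted p = 4.28e-11). Slc5a6, the vitamin transporter that takes up pantothenate, rose by 0.42 in LWT and 0.39 in LKO. Slc25a16 did not pass the test with fasting in either genotype (0.07 and 0.01), and it was lower in LKO when fed (-0.34) and when fasted (-0.40). Slc25a42 was higher in LKO when fasted (0.47, adjusted p = 0.00439), though the difference of its fasting changes did not pass (0.44, adjusted p = 0.0843). Slc25a42 and Slc5a6 thus rose in both genotypes, as Pank1 and Pank3 did.

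Of the 8 genes of coenzyme A breakdown and phosphopantetheine use, 3 rose and 2 fell in LWT, and 2 rose and 2 fell in LKO, where 41.6% and 41.5% of all genes were called in either direction. Nudt7, the peroxisomal hydrolase that cleaves coenzyme A, fell by 1.91 in LWT (adjusted p = 3.96e-08) and fell by 1.57 in LKO (adjusted p = 2.07e-06). Btd, biotinidase and a relative of the vanins, rose by 0.57 in LWT and 0.77 in LKO. Dcakd, named for its dephospho-CoA kinase domain, rose by 0.28 in LWT and 0.76 in LKO, with a difference of 0.49 between the changes (adjusted p = 0.0211). Nudt19, the other known coenzyme A hydrolase of peroxisomes on the list, stayed at -0.03 in both genotypes and did not pass.

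The cysteamine that pantetheinases release is oxidised to hypotaurine, the precursor of taurine. Of 5 genes tested on this list of 6, 1 rose and 1 fell in each genotype, a share near the 41.6% (LWT) and 41.5% (LKO) of all genes called. The taurine transporter Slc6a6 fell by 0.83 in LWT and fell by 0.79 in LKO. Cdo1, the cysteine dioxygenase, rose by 0.71 in LWT (adjusted p = 2.11e-06) but had a change of 0.07 in LKO (adjusted p = 0.608), and the difference of -0.63 passed the test (adjusted p = 0.00675). Ado, the dioxygenase that acts on cysteamine itself, rose by 0.13 in LKO (adjusted p = 0.0363) and had a change of 0.08 in LWT (adjusted p = 0.176).

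Acyl-CoA synthetases, which consume coenzyme A to activate fatty acids and acetate, moved both ways. Of 18 tested on this list of 21, 6 rose and 6 fell in LWT, and 7 rose and 7 fell in LKO. Of all genes, 19.9% rose and 21.7% fell in LWT, and 41.5% were called in either direction in LKO. Acss2, the cytosolic acetyl-CoA synthetase, fell by 1.79 in LWT and fell by 1.77 in LKO. Acsl1, the main long-chain synthetase of liver, rose by 0.93 in LWT and 1.43 in LKO. Slc27a1, a fatty acid transport protein with synthetase activity, rose by 0.72 in LWT and 1.49 in LKO.

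Targets of PPARα other than these genes gave the scale of the fasting response. Of 27 tested on a list of 28, 24 rose in LWT and 25 rose in LKO, and the fasting change was larger in LKO by the test for 16 of the 27. The shares over all genes were 19.9%, 19.7% and 4.13%. The list was written with earlier results of these data known, so its counts are not independent evidence. Between genotypes, 6 of the 27 were lower in LKO when fed, against 7.61% of all genes, and 13 were higher and 1 lower when fasted, against 9.99% and 10.6%. The median log2 fold change was 0.97 in LWT and 1.43 in LKO. By the larger of their 2 fasting changes (LWT, then LKO), the first 3 were Acot2, an acyl-CoA thioesterase that frees coenzyme A (3.48 and 6.17), Cyp4a14, a fatty acid hydroxylase (5.49 and 5.36), and Fgf21, a fasting hormone (3.18 and 5.22). Vnn1, at 2.03 and 3.44, lay within the range of these targets, and Pank1 and Pank3 lay below the median of the list in both genotypes. The mean of the 27 genes, centred on the 24 arrays, ran from -0.998 to -0.623 in LWT_Fed, 0.65 to 0.93 in LWT_Fasted, -1.47 to -0.79 in LKO_Fed and 0.70 to 1.27 in LKO_Fasted.

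**Figure D4:**
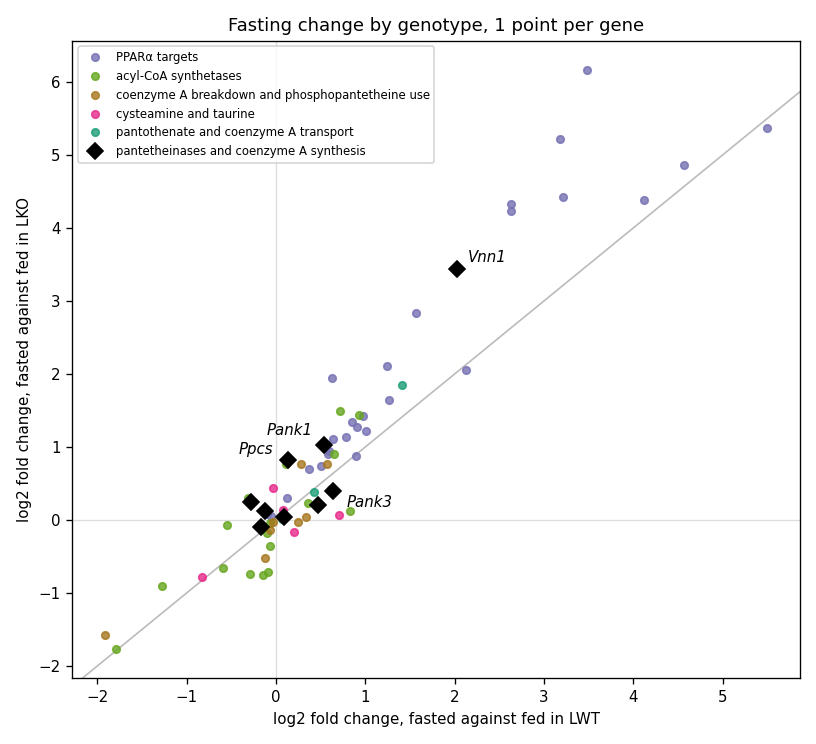
Log2 fold change with fasting in LWT (horizontal) and in LKO (vertical), 1 point per gene for the 9 genes (black diamonds) and the 5 lists around them; the grey diagonal marks equal change. Vnn1, Pank1 and Ppcs lie above the diagonal and Pank3 below it; of these, the difference between genotypes was called for Pank1 and Ppcs.

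The same arrays were often the lowest of their groups across these genes. LKO_Fasted replicate 4 was the lowest of its 6 for 6 of the 9 genes and for 24 of the 27 PPARα targets, against 23.8% of all genes. LWT_Fasted replicate 5 was the lowest of its 6 for 7 of the 9 genes and 11 of the 27 targets, against 13.4% of all genes. Among fed arrays, LWT_Fed replicate 2 was the lowest of its 6 for 4 of the 9 genes and 10 of the 27 targets, against 14.2% of all genes. For LWT_Fed replicate 3 the counts were 3 and 9 (32.7% of all genes), and for LKO_Fed replicate 2 they were 3 and 3 (19.2%). LKO_Fed replicate 1 was the lowest of its 6 for 3 of the 9 genes and 17 of the 27 targets, against 16.2% of all genes. Without it the calls on Pank1 in fed livers (-0.19, adjusted p = 0.178) and in the difference of the fasting changes (0.40, adjusted p = 0.0648) were lost, as were those on Pank2 in fed livers (-0.29, adjusted p = 0.0545) and by fasting in LKO (0.23, adjusted p = 0.0874). Without both LKO_Fasted replicate 4 and LWT_Fasted replicate 5, a setting chosen after seeing the data, the fasting change of Ppcs in LWT was called (0.19, adjusted p = 0.0441), as was the lower Pank3 in LKO_Fasted (-0.27, adjusted p = 0.0125). No other call among the 9 genes ended or began. LKO_Fasted replicates 1 and 2 stood apart from the rest of their group on the second principal component of all arrays (13.6% of the variance), with scores of 35.1 and 31.3 against 1.40 to 2.92 for the other 4. Without them the difference between genotypes in the fasting change of Pank1 was 0.46 (adjusted p = 0.0566) and that of Ppcs stayed called. The calls on Pank2 by fasting in LKO, on Pank1 between genotypes in fed livers and on Vnn3 in fasted livers were also lost, and the lower Pank3 in LKO_Fasted was called (-0.28, adjusted p = 0.0224).

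**Figure D5:**
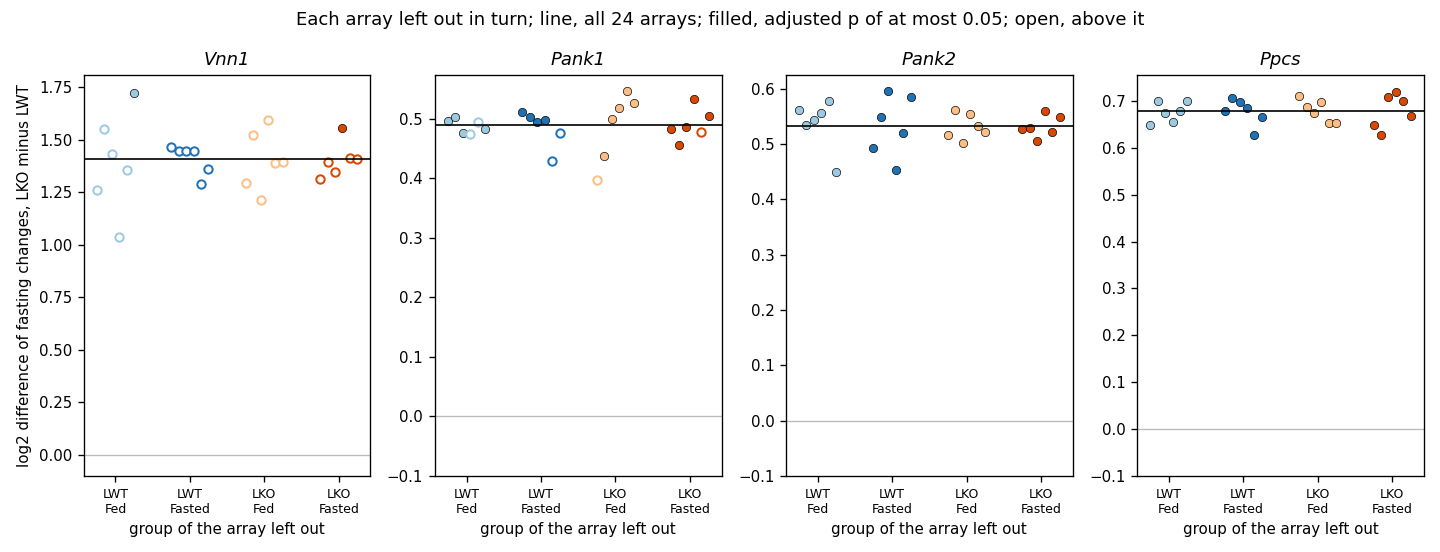
Difference of the fasting changes (LKO minus LWT, log2) of Vnn1, Pank1, Pank2 and Ppcs with each of the 24 arrays left out in turn; the black line is the value from all arrays, filled points have an adjusted p of at most 0.05, and open points lie above it. Ppcs and Pank2 (first probe) are filled throughout, Pank1 is open for 6 arrays, and Vnn1 is filled only without LWT_Fed replicate 6 or LKO_Fasted replicate 4.

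The genes whose pattern over the 24 arrays was most like that of each gene changed beyond 1.5-fold were taken by the smallest root mean square difference of centred log2 signals, among 14320 candidates. Next to Vnn1 were Lamb3, a laminin chain (0.49), the predicted gene Gm23952 (0.54) and Crat, carnitine acetyltransferase (0.58), beside a spread of Vnn1 itself of 1.49. For Pank1 they were Acad11, an acyl-CoA dehydrogenase (0.12), Kdsr, of sphingolipid synthesis (0.13), and Entpd5, a nucleotidase (0.15), beside its own 0.43. For Pank3 they were Map1lc3b, of autophagosomes, Serinc1 and Pear1 (0.12 each), beside its own 0.31. For Ppcs they were Mttp, which loads lipoproteins with lipid (0.14), Hgs, of endosomal sorting (0.14), and Slc52a2, a riboflavin transporter (0.15), beside its own 0.33.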

How the data were processed

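RNA from 24 livers, 1 array per mouse, was labelled with Cy3 and hybridised to Agilent SurePrint G3 Mouse GE 8x60K arrays. The authors read spot intensities from the scans with Agilent Feature Extraction (version 10.10.1.1, per the file headers), and the deposited scanner files hold the median intensity, the processed intensity and flags for each spot. The deposited value table holds log2 values. By the methods, the authors filtered them, corrected them for washing bath and quantile normalized them in R. Its columns had medians of 8.06 and correlated on every array (lowest r 0.999998) with the values used here, which were quantile normalized with no such correction. Its scale and direction are therefore log2 signal, no centring was seen and a bath correction is not apparent in it, while the filter rule is not given in the sources used here. It served as an alternative.

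Here, control spots and outlier spots were left out, a probe was kept where 5 or more of the 6 arrays in any 1 group flagged it well above background, and log2 median intensities were quantile normalized. The limma 3.58.1 fit (R 4.3.3) had group means and slide as terms and array weights, the slide standing in for the washing bath, which the labels do not give. Contrasts gave the 4 comparisons and their interaction, with two-sided p-values adjusted by Benjamini-Hochberg over all kept probes. Changes are relative to an unchanged median of all genes. Replicates are separate mice. Replicate numbers did not pair the samples. The deviations of same-numbered arrays correlated between -0.17 and 0.30. Probe positions are mm9 per the file headers, and gene, promoter and miRNA entries come from RefSeq (GRCm38.p6). Arrays give no read depth, so their number limits the precision.

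The 9 genes and the lists around them were chosen with earlier results of these data known. Every gene of the 9 is named in every comparison, and of each list the 3 genes changed most by fasting, plus a few chosen after their values were seen (Slc25a16, Nudt19). Alternatives were other scalings, normexp background correction, the value table, other filters, slide and weight settings, a replicate block, the compared groups alone, each slide alone, other probes, a required 1.5-fold change and leaving out arrays.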

Additional observations from a re-analysis of the deposited data

Results flagged for a closer look

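Among 36 sets of 6 arrays (9 genes in 4 groups), 7 had 1 array far from the other 5 by Dixon's test at the 95% level, where chance gives about 1 in 20. LKO_Fasted replicate 4 accounted for 3 of them, with low values of Vnn1 (11.48), Pank1 (11.58) and Pank2 (8.05). LWT_Fasted replicate 5 was low for Vnn1 (11.82), LWT_Fed replicate 3 for Pank3 (12.53) and LKO_Fasted replicate 2 for Ppcdc (10.76). LWT_Fed replicate 6 was high for Pank2 (8.77). The fasting change differed between genotypes by limma's test of the difference for 3 genes. The change in LKO minus that in LWT was 0.49 for Pank1, 0.53 for Pank2 (0.22, not called, on its second probe) and 0.68 for Ppcs.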

How the results depend on the processing

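Of 19 calls on the 9 genes, 12 stayed in every alternative that kept the probe and the threshold, among them all fasting calls on Vnn1, Pank1 and Pank3 and all calls on Ppcs. The other 7 concern Pank2 by fasting in both genotypes and in fed livers, Pank1 in fed livers and in the difference of the fasting changes, Coasy in fed livers and Vnn3 in fasted livers. Fewer genes were called lower in fed LKO with the compared groups alone (1) and with no filter on dim probes (0 by limma, with 5 at an unadjusted p under 0.05). In fasted livers 1 was called between genotypes with processed intensities scaled to the 75th percentile, with no filter and with the compared groups alone. Leaving out 1 array gave 1 to 3 calls in fed and 1 to 3 in fasted livers between genotypes. With a 1.5-fold change required, 2 genes were called by fasting in LWT, 3 in LKO, 0 in fed and 0 in fasted livers between genotypes (5 in each at an unadjusted p under 0.05 by limma), and 1 in the difference of the fasting changes. The fasting change of Pank2 in LWT turned to 0.021 within slide 1. With the replicate block in place of slide, the calls on Pank2 by fasting in LKO (0.19, adjusted p = 0.0791) and on Vnn3 in fasted livers (-0.26, adjusted p = 0.0573) were lost, and those on Ppcs in fed livers (-0.23, adjusted p = 0.027) and Pank3 in fasted livers (-0.22, adjusted p = 0.0246) were gained.

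Median intensities scaled to the 75th percentile without quantile normalization moved the median of all genes by fasting in LKO to -0.11. They also moved the share of higher genes among those called, from 47.3% to 33.8% by fasting in LKO, from 53.7% to 70.5% between genotypes in fed livers and from 51.6% to 36.3% in the difference of the fasting changes. Under processed intensities the last 2 were 65.2% and 40.7%. The direction of every call on the 9 genes stayed under both scalings. The cause of these differences was not tested. All 11 probes were well above background on every array.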
